A study of Rattus norvegicus with 11 samples.

Results

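The genes examined here make, break down and read out cyclic AMP (cAMP) in rat fat. They are the adenylyl cyclases (Adcy), the cyclic nucleotide phosphodiesterases (Pde), the regulatory and catalytic subunits of protein kinase A (Prkar and Prkac), the kinase A anchoring proteins (Akap), and 7 genes of the transcriptional output and its feedback. They were picked out by a rule on gene names, which was set with earlier results of these data known. The rule gave 61 of the 25275 gene rows, and 49 of the 61 had enough counts to be tested among 12846 genes in all. The tissue was retroperitoneal white adipose tissue of 11 female wild-type Wistar rats, 1 RNA library per rat. One group of 5 rats received degarelix plus FSH (follicle-stimulating hormone) from osmotic pumps at 6 µg per kg per day, and the other group of 6 received degarelix with vehicle in the pumps (degarelix only). Both groups ate a western diet for 6 weeks from 10 weeks of age, lost their ovaries, and then received degarelix, which blocks the receptor for gonadotropin-releasing hormone and so suppresses the rat's own FSH and luteinizing hormone. Food was restricted for 12 days and free for 7 days, and the tissue was taken after a fast of 4 hours, at 19 weeks of age. No rats with ovaries or without degarelix were analysed here. All changes are degarelix plus FSH minus degarelix only.

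In a fat cell, hormones that act on receptors coupled to the stimulatory G protein switch on adenylyl cyclases, which make cAMP from ATP, while receptors coupled to inhibitory G proteins hold the cyclases back. cAMP releases the catalytic subunits of protein kinase A from their regulatory subunits, and the freed kinase phosphorylates lipases and lipid droplet proteins, which sets fatty acids free. Phosphodiesterases end the signal, anchoring proteins place the kinase at particular membranes and organelles, and CREB with its relatives and coactivators carries the signal to genes. The FSH receptor belongs to the receptors that signal through the stimulatory G protein.

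Library totals were 13163021 to 19837706 counts in the 5 degarelix plus FSH libraries and 16452117 to 23694602 counts in the 6 degarelix only libraries (p = 0.0649, two-sided exact permutation test of the means). Levels are given as CPM, a gene's counts relative to the scaled total of its library; they are not divided by gene length and are compared between rats, not between genes. Summed over 7 adipocyte markers, the libraries held 48617 to 60741 CPM with degarelix plus FSH and 46599 to 61047 CPM with degarelix only, so fat cell RNA was abundant in each and the groups overlapped. Degarelix plus FSH replicate 3 stood apart in Schwann cell markers: the summed level of the 6 markers was 12745 CPM there, against 3131 to 4436 CPM in the other degarelix plus FSH libraries and 3891 to 5320 CPM in the degarelix only libraries. Of the 61 genes, Adcy8, a calcium-stimulated cyclase of nervous tissue, had counts in that library alone. Because whole tissue was sequenced, fewer cells of a type and less RNA per cell cannot be told apart.

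At an adjusted p of 0.05 (edgeR's quasi-likelihood test with Benjamini-Hochberg adjustment over all genes), 5 of the 49 tested genes differed between the groups, and genes past that threshold are said to be called. The phosphodiesterases Pde2a and Pde9a and the anchoring protein Akap8l rose with FSH, and the phosphodiesterase Pde7b and the kinase A regulatory subunit Prkar2a fell. These 5 are 10.2% of the 49, against 2.27% of all genes tested; by direction, 3 rose (background 1.21%) and 2 fell (background 1.07%). At an unadjusted p of 0.05, 14 of the 49 passed, 7 higher (background 11.8%) and 7 lower (background 10.8%), which is 28.6% against 22.6% of all genes. The 2 groups of rats did not overlap at 6 of the 49 (12.2%, against 4.34% of all genes), with FSH above at 4 (background 2.54%) and below at 2 (background 1.8%). Because the rule was set with earlier results known, these shares are a description and no independent support for a change in the pathway. Within 1.2-fold in either direction lay 33 of the 49 (67.3%, against 74.3% of all genes), and the median size of the log2 change was 0.20, beside 0.15 for all genes. The log2 changes ran from -0.81 to 0.72, and their median was -0.01, beside 0.01 for all genes. All 5 calls depended on single libraries, as given under each gene, and none of the 5 stood when degarelix plus FSH replicate 1, 2, 3 or 5 or degarelix only replicate 1, 5 or 6 was left out. Over the whole table, 30 to 92 genes were called with 1 of those 7 libraries left out, against 292 with all 11.

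**Figure D1:**
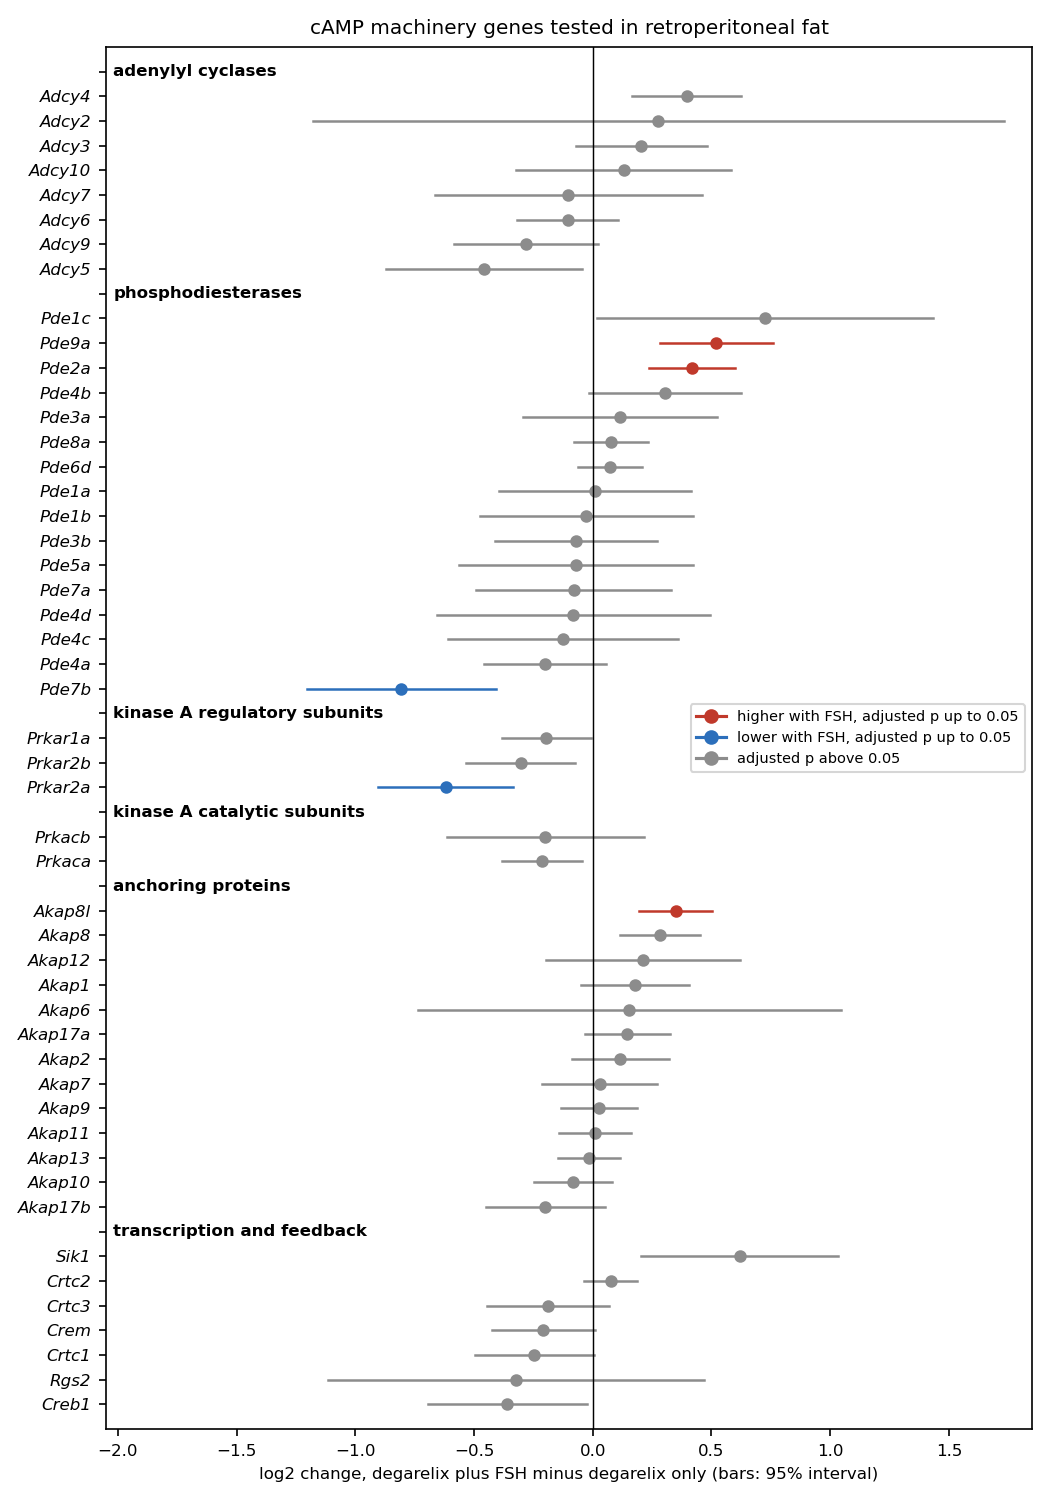
Log2 change (degarelix plus FSH minus degarelix only) of the 49 tested genes, grouped by family; points are estimates from edgeR's fit and bars their 95% intervals, n = 5 and 6 rats. Red points (Pde9a, Pde2a, Akap8l) rose and blue points (Pde7b, Prkar2a) fell at an adjusted p of 0.05; most of the rest lie within 1.2-fold of no change.

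Phosphodiesterases decide how long cAMP and its sister messenger cGMP last, and their families differ in which of the messengers they cut. Of 21 phosphodiesterase rows, 16 were tested, with 2 called higher (background 1.21% of all genes) and 1 lower (background 1.07%). Pde2a (ENSRNOG00000019560) encodes an enzyme that cuts both messengers and is switched on by cGMP. It had 287, 269.9, 246, 211 and 286 CPM in the 5 rats on degarelix plus FSH, against 182, 194 and 215 CPM (lowest, median and highest of 6) in those on degarelix only. Of the 5 FSH rats, 4 lay above every degarelix only rat, and FSH replicate 4 fell inside their range. The fold was 1.34 (log2 change 0.42 ± 0.08 SE, adjusted p = 0.0328), and the call stood without degarelix plus FSH replicate 4 or degarelix only replicate 3 or 4 but ended with any 1 of the other 8 libraries left out (adjusted p of 0.0536 to 0.0844). Pde2a is known from capillary endothelium. Of 8 endothelial marker genes, all 8 had a change above 0 with a median log2 change of 0.32. At an unadjusted p of 0.05, 5 of the 8 passed, all higher (background 11.8%). Of the 8 markers, edgeR called 1, Tek (background 2.27% of all genes), as did limma-voom. DESeq2, which called 1135 of all 12846 genes against 292 by edgeR, called 3 (Cldn5, Esam and Tek). The summed level of the 8 was 1618 to 2638 CPM with degarelix plus FSH and 1425 to 1932 CPM with degarelix only, and none was at 0. All 9 smooth muscle and pericyte markers also had changes above 0, with a median log2 change of 0.19. Of those 9, 1 passed at an unadjusted p of 0.05, and edgeR, DESeq2 and limma-voom called none. The part of either set of markers in the Pde2a result was not tested.

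Pde9a (ENSRNOG00000001174) encodes a phosphodiesterase that is specific for cGMP, so its product does not act on cAMP. It had 14.2, 13.9, 12.3, 11.01 and 13.3 CPM in the 5 rats on degarelix plus FSH, against 6.85, 9.30 and 10.2 CPM (lowest, median and highest of 6) in those on degarelix only. Every FSH rat lay above every degarelix only rat, and the fold was 1.43 (log2 change 0.52 ± 0.11 SE, adjusted p = 0.0372). The call stood without degarelix plus FSH replicate 4 or degarelix only replicate 3 or 4, and ended with any 1 of the other 8 left out (adjusted p of 0.0512 to 0.0954). Pde7b (ENSRNOG00000013436), whose product is specific for cAMP, had 0.901, 0.925, 0.965, 0.883 and 0.727 CPM in the 5 rats on degarelix plus FSH, against 1.27, 1.53 and 1.83 CPM (lowest, median and highest of 6) in those on degarelix only. The groups did not overlap, with FSH lower at a fold of 0.572 (log2 change -0.81 ± 0.18 SE, adjusted p = 0.0440). At 253 counts over all 11 libraries Pde7b rests on few reads, and its call held just when degarelix only replicate 4 was left out, with an adjusted p of 0.0511 to 0.113 when any other library was.

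**Figure D2:**
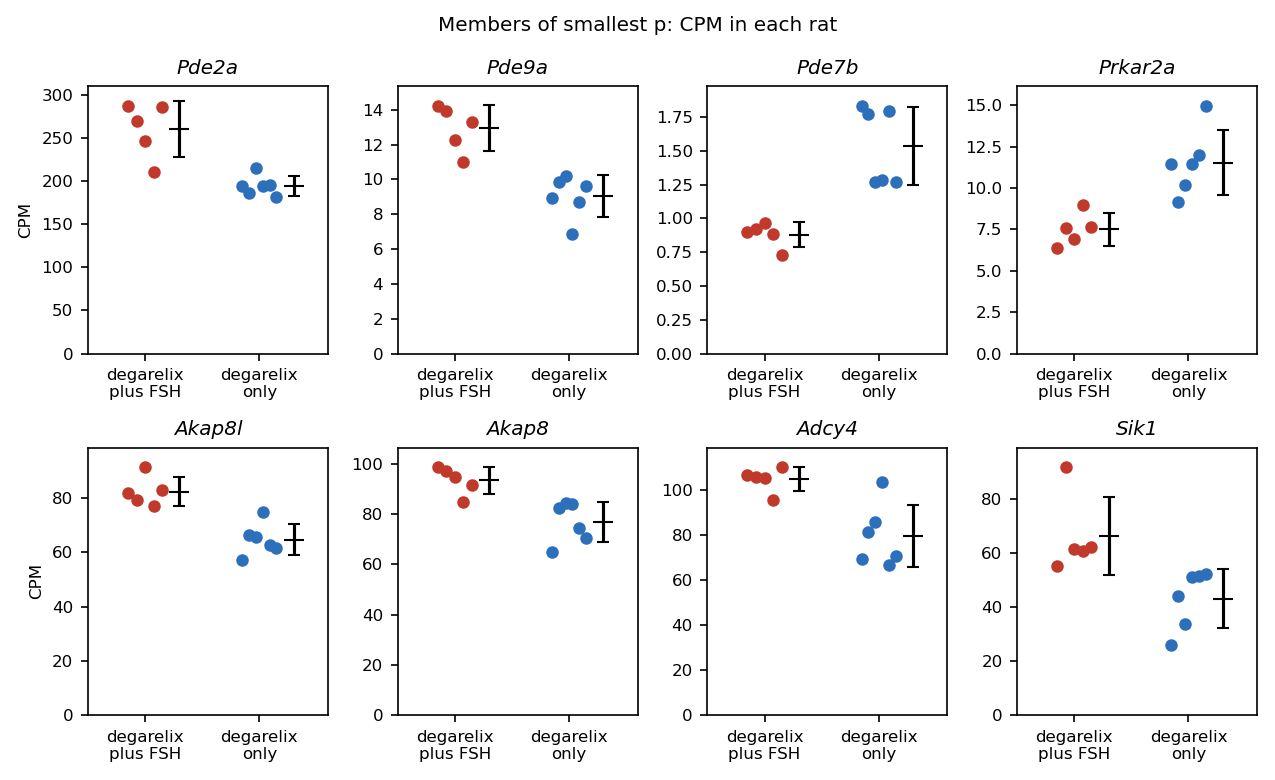
CPM in each rat for 8 genes of small p, with degarelix plus FSH (red, n = 5) left of degarelix only (blue, n = 6); the black bar is the mean ± SD and each axis starts at 0. The groups do not overlap for Pde9a, Pde7b, Prkar2a, Akap8l, Akap8 and Sik1, and overlap by 1 rat for Pde2a and Adcy4.

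The phosphodiesterases best known in fat cells did not pass the test. Pde3b, the enzyme through which insulin lowers cAMP and restrains lipolysis, had 80.5, 120.2, 133, 152 and 99.2 CPM in the 5 rats on degarelix plus FSH, against 102, 121 and 149 CPM (lowest, median and highest of 6) in those on degarelix only. Its groups overlapped almost fully, and the 95% interval of its log2 change, -0.41 to 0.27, holds no change as well as modest shifts either way (log2 change -0.07 ± 0.16 SE, adjusted p = 0.825). Its relative Pde3a had 1.34 to 1.74 CPM with degarelix plus FSH and 1.03 to 2.07 CPM with degarelix only (log2 change 0.11, 95% interval -0.30 to 0.52, adjusted p = 0.755). Among the cAMP-specific Pde4 genes, Pde4b, which cAMP itself is known to induce, had 20.4, 15.9, 13.4, 10.01 and 15.4 CPM in the 5 rats on degarelix plus FSH, against 10.5, 12.5 and 13.2 CPM (lowest, median and highest of 6) in those on degarelix only. The top value came from FSH replicate 1 and the lowest of all 11 from FSH replicate 4, and the log2 change was 0.30 (adjusted p = 0.245). Pde4d, with 166 counts in all, had 0.668 to 0.942 CPM with degarelix plus FSH and 0.598 to 1.58 CPM with degarelix only and a log2 change of -0.08 (adjusted p = 0.883). Pde4a and Pde4c had log2 changes of -0.20 (adjusted p = 0.334) and -0.13 (adjusted p = 0.775).

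Of the calcium-activated Pde1 genes, Pde1c had the highest positive log2 change of the 49 and a wide error, at 0.72 ± 0.32 SE (adjusted p = 0.211). It had 1.26, 2.16, 0.965, 0.883 and 0.727 CPM in the 5 rats on degarelix plus FSH, against 0.372, 0.696 and 1.15 CPM (lowest, median and highest of 6) in those on degarelix only. FSH replicate 2 was the highest, and without it the log2 change was 0.40. Pde1a and Pde1b had log2 changes of 0.01 and -0.03 (adjusted p = 0.981 and 0.952). The remaining tested genes were Pde7a and Pde8a, both cAMP-specific, the cGMP-specific Pde5a, and Pde6d, which encodes a carrier of lipid-modified proteins rather than an enzyme. Their log2 changes lay between -0.08 for Pde7a and 0.08 for Pde8a, and their groups overlapped. Families 3, 4, 7 and 8 had 9 tested genes, with 3 changes above 0, 6 below and Pde7b the sole call. They do not hold every enzyme that cuts cAMP. Pde2a, whose enzyme cuts both messengers, lies outside them and was called higher.

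Protein kinase A is a tetramer of regulatory and catalytic subunits, and in the white fat of mice the regulatory subunit made by Prkar2b is the form best known to govern lipolysis. All 5 tested subunit genes had log2 changes below 0, and 1 of them, Prkar2a, was called (background 2.27% of all genes). Prkar2a (ENSRNOG00000020284), which encodes the other type II regulatory subunit, had 6.37, 7.59, 6.91, 8.95 and 7.66 CPM in the 5 rats on degarelix plus FSH, against 9.13, 11.4 and 14.96 CPM (lowest, median and highest of 6) in those on degarelix only. All 5 FSH rats lay below all 6 degarelix only rats, at a fold of 0.651 (log2 change -0.62 ± 0.13 SE, adjusted p = 0.0372). The call stood without degarelix plus FSH replicate 4 or degarelix only replicate 2, 3 or 4 and ended with any 1 of the other 7 left out (adjusted p of 0.0633 to 0.0932).

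Prkar2b (ENSRNOG00000009079) had 818, 862, 1023, 881 and 788 CPM in the 5 rats on degarelix plus FSH, against 864, 1087 and 1264 CPM (lowest, median and highest of 6) in those on degarelix only. The ranges overlapped, because FSH replicate 3 was high for its group and degarelix only replicate 5 low, although all 5 FSH rats lay below the degarelix only mean (log2 change -0.30 ± 0.10 SE, adjusted p = 0.124). Its 95% interval on the log2 scale was -0.53 to -0.08. The type I subunit gene Prkar1a had 74.6, 78.8, 87.6, 92.4 and 76.5 CPM in the 5 rats on degarelix plus FSH, against 80.04, 98.8 and 103 CPM (lowest, median and highest of 6) in those on degarelix only, with the groups overlapping and a log2 change of -0.20 (adjusted p = 0.203). For the catalytic subunits, Prkaca had 119, 123, 127, 137 and 139 CPM in the 5 rats on degarelix plus FSH, against 125, 154 and 167 CPM (lowest, median and highest of 6) in those on degarelix only. Degarelix only replicate 4 was the single rat of its group inside the FSH range, and the log2 change was -0.21 (adjusted p = 0.139). Without that rat Prkaca passed as lower at an adjusted p of 0.0494, and in no other case with 1 library left out. Prkacb had 3.19 to 5.71 CPM with degarelix plus FSH and 3.33 to 5.84 CPM with degarelix only, with a log2 change of -0.20 (adjusted p = 0.559). At an unadjusted p of 0.05, all 3 tested regulatory subunit genes and 1 of the 2 catalytic ones passed, each lower (background 10.8% of all genes). Beside these, 5 of 7 adipocyte marker genes had changes below 0, and none was at 0. Of the 7, edgeR and limma-voom called none, and 3 passed at an unadjusted p of 0.05. DESeq2, which called 1135 of all 12846 genes, called Fabp4 higher and Lep and Pparg lower. The part of the 7 markers in the subunit values was not tested.

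Adenylyl cyclases make the messenger, and they differ in how calcium and G proteins act on them. Of 10 cyclase rows, 8 were tested, 4 with changes above 0 and 4 below. None was called by edgeR or limma-voom, and 2 passed at an unadjusted p of 0.05. DESeq2, which called 1135 of all 12846 genes, called 1, Adcy4. Adcy4 (ENSRNOG00000020401), a calcium-insensitive cyclase, came closest. It had 107, 106, 105, 95.5 and 109.9 CPM in the 5 rats on degarelix plus FSH, against 66.6, 76.03 and 103 CPM (lowest, median and highest of 6) in those on degarelix only. The FSH rats clustered tightly, and all of them but FSH replicate 4 lay above every degarelix only rat. FSH replicate 4 lay below degarelix only replicate 4 and above the others of that group. The log2 change was 0.40 ± 0.11 SE (adjusted p = 0.0681). Without degarelix only replicate 4, Adcy4 passed as higher (adjusted p = 0.0131), and with any other library left out its adjusted p was 0.0568 to 0.142.

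Adcy5 and Adcy6 form the branch that calcium inhibits. Adcy5 had 73.6, 75.9, 91.3, 92.2 and 60.7 CPM in the 5 rats on degarelix plus FSH, against 73.8, 97.9 and 160.1 CPM (lowest, median and highest of 6) in those on degarelix only. Of the degarelix only rats, 4 lay above all FSH rats, replicates 6 and 1 far above, while replicates 2 and 3 fell inside the FSH range, and the log2 change was -0.46 ± 0.19 SE (adjusted p = 0.182). Adcy6 had 404, 354, 413, 467 and 405 CPM in the 5 rats on degarelix plus FSH, against 384, 429 and 518 CPM (lowest, median and highest of 6) in those on degarelix only, with overlapping groups and a 95% interval of -0.32 to 0.11 around a log2 change of -0.11 (adjusted p = 0.547). Adcy3, a cyclase known from olfactory signalling and, in mice and humans, from its link to body weight, had 37.8, 39.9, 40.03, 36.8 and 44.8 CPM in the 5 rats on degarelix plus FSH, against 28.02, 33.8 and 44.1 CPM (lowest, median and highest of 6) in those on degarelix only. All 5 FSH rats lay above the degarelix only mean, 4 of them inside that group's range (log2 change 0.20, adjusted p = 0.354). Adcy9, Adcy7, Adcy2 and the soluble, bicarbonate-sensing Adcy10 had log2 changes of -0.28, -0.10, 0.28 and 0.13, and their adjusted p-values were between 0.254 and 0.845.

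Anchoring proteins hold kinase A near its targets, and 13 of 17 were tested: 10 had changes above 0 and 3 below. Akap8l alone was called (7.69% of the 13, against 2.27% of all genes). Akap8l (ENSRNOG00000006355), a nuclear relative of Akap8, had 81.8, 79.2, 91.4, 77.1 and 82.9 CPM in the 5 rats on degarelix plus FSH, against 57.3, 64.3 and 74.7 CPM (lowest, median and highest of 6) in those on degarelix only. Every FSH rat lay above every degarelix only rat, at a fold of 1.27 (log2 change 0.35 ± 0.07 SE, adjusted p = 0.0341). The call stood without degarelix plus FSH replicate 4 or degarelix only replicate 4 and ended with any 1 of the other 9 left out (adjusted p of 0.0525 to 0.0812). Akap8, which encodes a nuclear anchoring protein and is the neighbour of Akap8l in the rat genome, had 98.7, 97.3, 94.9, 84.8 and 91.6 CPM in the 5 rats on degarelix plus FSH, against 65.1, 78.4 and 84.5 CPM (lowest, median and highest of 6) in those on degarelix only. Here too the groups did not overlap, by a narrow margin, and the test was not passed (log2 change 0.28 ± 0.08 SE, adjusted p = 0.0716). Since the strand setting of the counting is not given in the sources used here, reads from neighbouring or overlapping genes may have been shared.

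Akap1, which tethers kinase A to mitochondria, had 71.5, 82.3, 85.7, 87.7 and 63.01 CPM in the 5 rats on degarelix plus FSH, against 61.3, 65.8 and 80.3 CPM (lowest, median and highest of 6) in those on degarelix only (log2 change 0.18, adjusted p = 0.334). The groups overlapped, with FSH replicates 1 and 5 inside the degarelix only range. Akap12, a large scaffold at the cell membrane, varied between rats of the same group, at 89.8 to 165 CPM with degarelix plus FSH and 81.9 to 142 CPM with degarelix only, and had a log2 change of 0.21 (adjusted p = 0.528). Akap10, Akap11, Akap13, Akap9 and Akap7 had log2 changes between -0.08 for Akap10 and 0.03 for Akap7. For Akap13, the 95% interval was -0.15 to 0.12, so a change of more than 1.2-fold lay outside it. The others were Akap2, Akap6, Akap17a and Akap17b, at 0.12, 0.15, 0.15 and -0.20.

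CREB, its relative CREM and the CRTC coactivators turn a cAMP signal into transcription, while Sik1, a kinase that keeps CRTC proteins out of the nucleus, is itself induced by cAMP and closes the loop. All 7 genes of this group were tested, 2 had changes above 0 and 5 below. None was called by edgeR or limma-voom, and 2 passed at an unadjusted p of 0.05, Sik1 and Creb1. DESeq2, which called 1135 of all 12846 genes, called 1, Sik1. Sik1 (ENSRNOG00000001189) had 55.1, 91.8, 61.6, 60.8 and 62.3 CPM in the 5 rats on degarelix plus FSH, against 26.1, 47.6 and 52.2 CPM (lowest, median and highest of 6) in those on degarelix only. The groups did not overlap, FSH replicate 2 was well above the rest, and the test was not passed (log2 change 0.62 ± 0.19 SE, adjusted p = 0.0977). The fold was 1.54, with a 95% interval of 0.20 to 1.03 on the log2 scale. Without FSH replicate 2 the log2 change was 0.47, and without degarelix only replicate 1, the lowest rat, it was 0.51.

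Crem (ENSRNOG00000014900) had 34.9, 28.1, 30.5, 26.02 and 32.8 CPM in the 5 rats on degarelix plus FSH, against 28.5, 36.05 and 40.3 CPM (lowest, median and highest of 6) in those on degarelix only. Creb1, the gene of CREB itself, had 1.86, 1.97, 2.30, 1.59 and 2.04 CPM in the 5 rats on degarelix plus FSH, against 2.03, 2.45 and 2.97 CPM (lowest, median and highest of 6) in those on degarelix only. In both genes all 5 FSH rats lay below the degarelix only mean and the groups overlapped, with log2 changes of -0.21 (adjusted p = 0.239) and -0.36 (adjusted p = 0.192). Of the coactivators, Crtc1 had 6.16 to 7.10 CPM with degarelix plus FSH and 5.76 to 9.16 CPM with degarelix only (log2 change -0.25, adjusted p = 0.230). Crtc2 varied little, at 87.3 to 93.6 CPM with degarelix plus FSH and 79.8 to 91.6 CPM with degarelix only (95% interval of the log2 change -0.04 to 0.19), and Crtc3 had a log2 change of -0.19 (adjusted p = 0.354). Rgs2, which shortens signalling through G proteins and is a known cAMP-induced gene, varied widely: it had 27.2, 17.95, 51.8, 26.1 and 32.2 CPM in the 5 rats on degarelix plus FSH, against 15.1, 39.3 and 73.8 CPM (lowest, median and highest of 6) in those on degarelix only. Its highest and its lowest value both came from the degarelix only group, replicates 1 and 4, and the 95% interval of -1.12 to 0.47 allows a change of more than 1.2-fold either way.

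The DNA element that CREB proteins bind, the cAMP response element, reads TGACGTCA on both strands, and its shorter core reads TGACG on one strand and CGTCA on the other. RefSeq promoter windows on build GRCr8, 250 bases before to 50 after each annotated start, were found for 48 of the 61 genes, 62 windows in all. The full element stood in 3 of the 62 windows (4.84%), those of Akap17a and Crem, against 1.83% of 33469 windows of all genes. The core, which lies within the full element and so is counted there too, stood in 21 of the 62 (33.9%), against 21.2% of all windows. Sik1, Crem, Rgs2, Creb1, Crtc2, Prkaca and Akap8l were among the 17 genes with a core. The windows below set the feedback genes Crem and Sik1 and the called Akap8l, all with such letters, beside the called Pde2a without them. Capitals mark the full element or its core, and every sequence runs 5′ to 3′ on the gene's strand.
Crem, the last of its 3 windows (chr17:58985240-58985539, plus strand): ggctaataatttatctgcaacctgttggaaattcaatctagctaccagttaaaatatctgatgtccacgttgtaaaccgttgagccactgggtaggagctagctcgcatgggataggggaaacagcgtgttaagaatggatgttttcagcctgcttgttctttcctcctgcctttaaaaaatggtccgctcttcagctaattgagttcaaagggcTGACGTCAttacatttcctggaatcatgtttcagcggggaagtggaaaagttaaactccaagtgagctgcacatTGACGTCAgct
Sik1 (chr20:9958597-9958896, minus strand): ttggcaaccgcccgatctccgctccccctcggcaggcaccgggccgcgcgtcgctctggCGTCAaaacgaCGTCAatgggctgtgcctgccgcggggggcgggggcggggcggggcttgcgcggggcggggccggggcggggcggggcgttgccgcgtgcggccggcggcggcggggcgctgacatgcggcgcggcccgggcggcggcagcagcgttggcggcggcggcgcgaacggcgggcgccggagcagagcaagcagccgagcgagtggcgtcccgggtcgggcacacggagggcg
Akap8l (chr7:12012762-12013061, minus strand): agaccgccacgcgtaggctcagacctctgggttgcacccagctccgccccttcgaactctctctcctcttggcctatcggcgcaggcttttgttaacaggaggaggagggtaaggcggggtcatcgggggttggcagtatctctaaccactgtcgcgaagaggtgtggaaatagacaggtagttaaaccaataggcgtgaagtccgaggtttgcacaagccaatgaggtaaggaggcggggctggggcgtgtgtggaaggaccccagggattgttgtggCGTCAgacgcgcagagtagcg
Pde2a, the first of its 2 windows (chr1:165235373-165235672, plus strand): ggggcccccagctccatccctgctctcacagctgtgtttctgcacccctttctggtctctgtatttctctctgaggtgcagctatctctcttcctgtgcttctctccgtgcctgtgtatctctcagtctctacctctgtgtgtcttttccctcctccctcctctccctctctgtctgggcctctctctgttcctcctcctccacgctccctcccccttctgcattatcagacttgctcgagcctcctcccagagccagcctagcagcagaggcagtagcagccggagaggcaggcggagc
The Crem window holds the full element at 2 places, the Sik1 window the core at 2 places, the Akap8l window the core once, just past the start site, and neither Pde2a window holds either. Crem and Pde2a have further windows, for other annotated starts. The counts are per gene and do not tell which start was used, and matching letters do not show that a protein binds there.

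**Figure D3:**
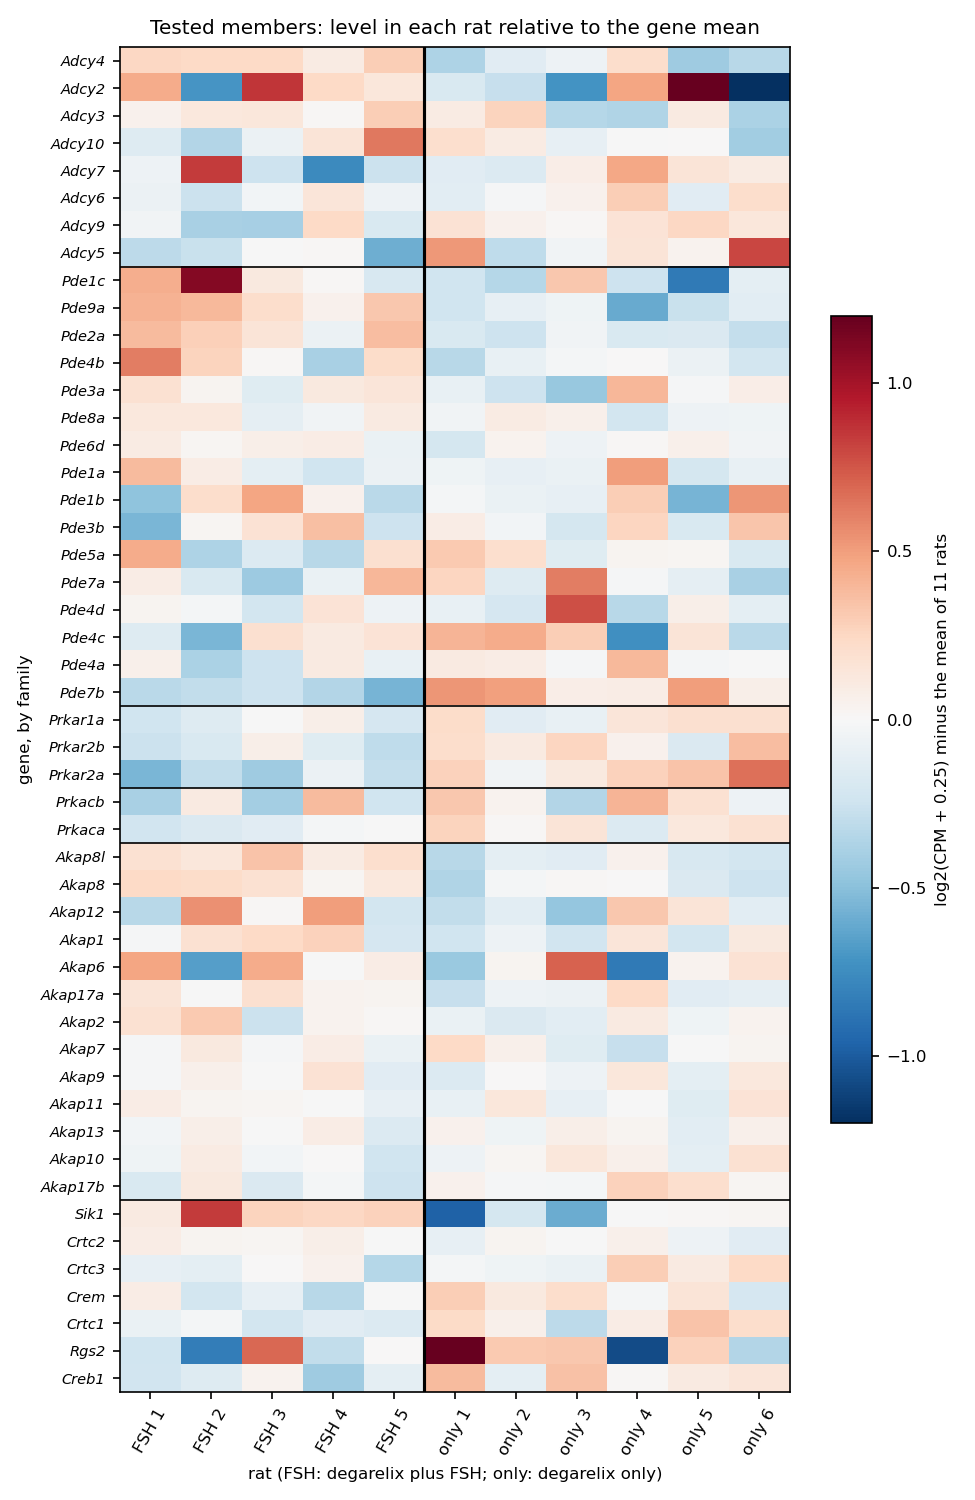
Level of each tested gene in each rat as log2(CPM + 0.25) minus the mean of the 11 rats, with the 5 degarelix plus FSH rats left of the black line and the 6 degarelix only rats right of it; rows are grouped by family in the order of the log2 change plot. Rows such as Pde9a, Pde7b, Prkar2a and Akap8l split at the line, while Adcy2, Adcy7, Rgs2 and Akap6 vary between rats of the same group.

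The other 12 genes had too few counts to be tested. Akap4, Akap5 and Pde6b had 0 counts in all 11 libraries, which allows up to 0.127 to 0.228 CPM per library (3 counts of its total, counting error only). Adcy8 had 6 counts, all in degarelix plus FSH replicate 3, the library with high Schwann cell markers, and Akap14 had 2 counts in all. Adcy1, Akap3, Prkar1b, Pde6c and Pde8b had between 20 and 102 counts over the 11 libraries. Pde10a, whose enzyme cuts both messengers, had 0.236 to 0.775 CPM with degarelix plus FSH and 0.127 to 0.324 CPM with degarelix only, from 66 counts. The photoreceptor gene Pde6a had 0.0589 to 0.617 CPM with degarelix plus FSH and 0.390 to 0.991 CPM with degarelix only, from 98 counts. When all genes with a count were fitted, neither passed (adjusted p = 0.115 for Pde10a and 0.199 for Pde6a). No row carried the name Gnas, the gene of the stimulatory G protein, and it was not analysed here.

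Receptors upstream of the cyclases gave 5 further calls among the 33 tested (background 2.27% of all genes). The receptor lists, like those of the downstream genes, were chosen with earlier results of these data known. Their shares of calls are therefore a description and no independent support for a change in the pathway. Of 34 listed receptors that act through the stimulatory G protein, 33 were found and 19 tested, and 2 rose (background 1.21% of all genes) and none fell. Ptger2, a prostaglandin E2 receptor, had 7.99, 11.5, 10.7, 8.13 and 10.2 CPM in the 5 rats on degarelix plus FSH, against 4.35, 5.46 and 6.01 CPM (lowest, median and highest of 6) in those on degarelix only. Every FSH rat lay above every degarelix only rat (log2 change 0.88 ± 0.13 SE, adjusted p = 0.00980), and the call stood with any 1 library left out. Gipr, the receptor of the incretin GIP, had 33.5, 68.9, 32.97, 43.3 and 49.2 CPM in the 5 rats on degarelix plus FSH, against 14.9, 24.98 and 27.4 CPM (lowest, median and highest of 6) in those on degarelix only. The groups did not overlap (log2 change 1.02 ± 0.22 SE, adjusted p = 0.0397), and the call stood without degarelix plus FSH replicate 3 or 4 or degarelix only replicate 4 and ended with any 1 of the other 8 left out (adjusted p of 0.0524 to 0.0943). The main fat cell beta-adrenergic receptor gene, Adrb3, had 196 to 362 CPM with degarelix plus FSH and 248 to 312 CPM with degarelix only and a log2 change of 0.06 (adjusted p = 0.835). The FSH receptor gene, Fshr, had 0 counts in all 11 libraries, which allows up to 0.127 to 0.228 CPM per library. The median log2 change of the 19 was 0.13.

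Of 15 listed receptors that act through inhibitory G proteins, 14 were tested, and 1 rose (background 1.21%) and 2 fell (background 1.07%), with a median log2 change of 0.27. Both that fell are known brakes on lipolysis in fat cells, but the list did not fall as a whole: 9 of the 14 had changes above 0 and 5 below. Among those above 0 were Hcar1 (log2 change 0.63), Hcar2 (0.60), Adra2a (0.51) and Npy1r (0.28), none of which was called. Adora1, the adenosine A1 receptor, had 64.6, 81.99, 97.8, 96.3 and 70.2 CPM in the 5 rats on degarelix plus FSH, against 108, 119 and 151 CPM (lowest, median and highest of 6) in those on degarelix only, and the groups did not overlap (log2 change -0.58 ± 0.12 SE, adjusted p = 0.0396). Ptger3, another prostaglandin E2 receptor, had 132, 95.9, 115, 115 and 99.9 CPM in the 5 rats on degarelix plus FSH, against 132, 152 and 180.1 CPM (lowest, median and highest of 6) in those on degarelix only. Its groups were separated by the gap between 131.8 CPM in FSH replicate 1 and 131.9 CPM in the lowest degarelix only rat (log2 change -0.47 ± 0.11 SE, adjusted p = 0.0448). S1pr1, a sphingosine phosphate receptor known from endothelium, had 189, 191, 175, 179 and 189.8 CPM in the 5 rats on degarelix plus FSH, against 112, 129 and 143 CPM (lowest, median and highest of 6) in those on degarelix only, with all FSH rats above (log2 change 0.53 ± 0.08 SE, adjusted p = 0.00979), and stood with any 1 library left out. The Adora1 call stood without degarelix plus FSH replicate 3 or 4 or degarelix only replicate 4 and ended with any 1 of the other 8 left out (adjusted p of 0.0516 to 0.0965). The Ptger3 call stood without degarelix plus FSH replicate 4 or degarelix only replicate 4 and ended with any 1 of the other 9 left out (adjusted p of 0.0603 to 0.110).

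**Figure D4:**
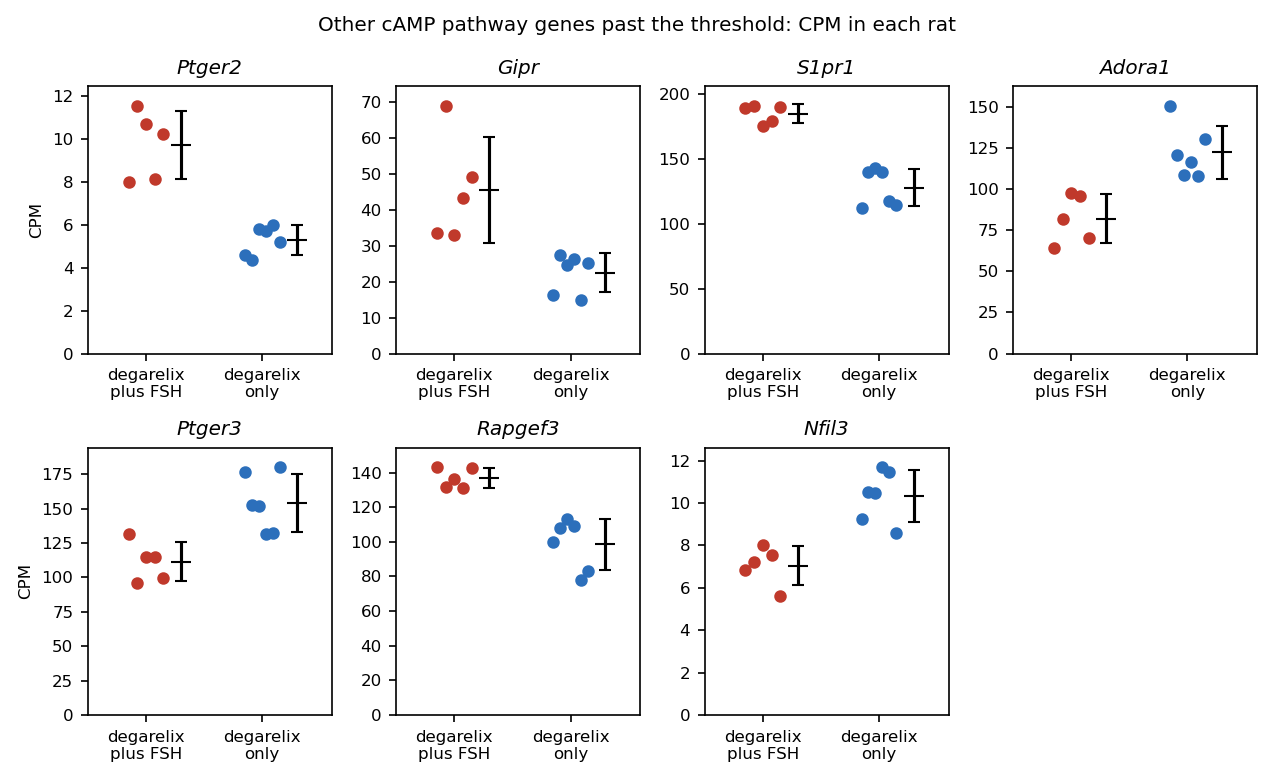
CPM in each rat for the 7 called genes upstream and downstream of the cAMP machinery, with degarelix plus FSH (red, n = 5) left of degarelix only (blue, n = 6); the black bar is the mean ± SD and each axis starts at 0. Ptger2, Gipr, S1pr1 and Rapgef3 lie higher and Adora1, Ptger3 and Nfil3 lower with FSH, with no overlap of the groups.

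Downstream of cAMP, Rapgef3 was the sole call among 10 tested of 13 listed other cAMP effectors and kinase A inhibitors (median log2 change 0.19). That is 10% of those tested, against 2.27% of all genes. Rapgef3, which encodes Epac1, the cAMP sensor that works without kinase A, had 143, 132, 136, 131 and 143 CPM in the 5 rats on degarelix plus FSH, against 77.8, 104 and 113 CPM (lowest, median and highest of 6) in those on degarelix only. The groups did not overlap (log2 change 0.47 ± 0.10 SE, adjusted p = 0.0343), and the call stood without degarelix plus FSH replicate 4 or degarelix only replicate 2, 3 or 4 and ended with any 1 of the other 7 left out (adjusted p of 0.0543 to 0.0850). Like Pde2a and S1pr1 it is expressed in endothelium, whose markers are given above, and their part in these values was not tested. The kinase A inhibitor gene Pkig had a log2 change of 0.20 (adjusted p = 0.0965). None of 15 tested G protein subunit and RGS genes was called by edgeR, DESeq2 or limma-voom, and 0 passed at an unadjusted p of 0.05 (median 0.01). The smallest p-values were those of Gng2, at 0.83 (adjusted p = 0.276), and Ric8b, at -0.19 (adjusted p = 0.488). Gng2 had 37.6 CPM in FSH replicate 3, the library with high Schwann cell markers, and its log2 change was 0.07 without it.

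None of 11 tested CREB family and coactivator genes was called by edgeR (median -0.11), though 3 passed at an unadjusted p of 0.05. Closest in edgeR were Creb3 at -0.27 (adjusted p = 0.0507) and Crebbp at 0.21 (adjusted p = 0.163). Creb3 was called lower by DESeq2 (1135 of all 12846 genes called) and by limma-voom (324 called). Of 20 cAMP-responsive target genes found, 17 were tested, with a median log2 change of 0.23, 14 above 0 and 3 below. Of all 12846 genes tested, 6630 were above 0. At an unadjusted p of 0.05, 1 of the 17 passed (5.88%, against 22.6% of all genes). The same gene was the sole call, a lower one (5.88%, against 2.27% of all genes). This was Nfil3, a transcription factor, with 6.85, 7.22, 8.02, 7.54 and 5.62 CPM in the 5 rats on degarelix plus FSH, against 8.58, 10.5 and 11.7 CPM (lowest, median and highest of 6) in those on degarelix only. The groups did not overlap (log2 change -0.55 ± 0.12 SE, adjusted p = 0.0367), and the call stood without degarelix plus FSH replicate 4 or degarelix only replicate 4 and ended with any 1 of the other 9 left out (adjusted p of 0.0503 to 0.0875). Nr4a2 had a log2 change of 0.42 (adjusted p = 0.307). None of 8 lipolysis genes whose products kinase A controls or that work beside them was called by edgeR, DESeq2 or limma-voom, and 0 passed at an unadjusted p of 0.05 (median 0.07), with Mgll at -0.22 (adjusted p = 0.480) and Cidec at -0.16 (adjusted p = 0.590) of smallest p.

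**Figure D5:**
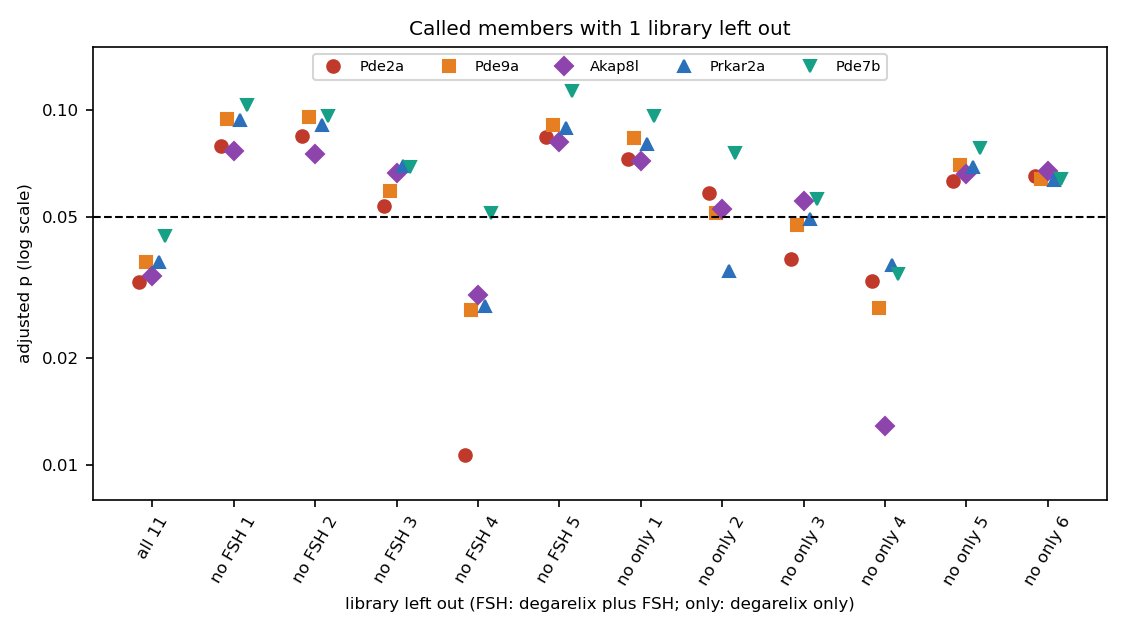
Adjusted p (log scale) of the 5 called genes with all 11 libraries and with each library left out in turn; the dashed line is the threshold of 0.05. All 5 lie below it with all libraries, 4 without degarelix plus FSH replicate 4, and none without degarelix plus FSH replicate 1, 2, 3 or 5.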

How the data were processed

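The authors deposited whole-number counts per Ensembl gene, 1 column per rat. The submitters' processing notes name STAR, edgeR, DESeq2 and rat build rn6, without roles or versions. Which program counted, on which annotation and with which strand setting, is not given in the sources used here. Per the labels' protocols, libraries were made with a strand-marking kit and read as pairs. Columns were matched to rats by name. Pcmt1 was left out because 1 cell holds a letter.

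The test was edgeR 4.0.16's robust quasi-likelihood F test (R 4.3.3, TMM factors, filterByExpr, group as the only term), two-sided, with Benjamini-Hochberg adjustment over the 12846 genes tested and a threshold of 0.05; the biological coefficient of variation was 0.191. SE and 95% intervals derive from it. It was tested on simulated data. No set test was run.

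The genes, lists and naming rule (called genes, the 8 smallest p in each direction, genes fixed by role, the 2 smallest p of each pathway list) were chosen with earlier results of these data known; other genes are named to account for each family. Of 197 listed symbols, 191 matched. Alternatives were other scalings, filters, DESeq2 1.42.0, limma-voom (limma 3.58.1), a threshold of 0.10, each library left out, and a replicate block. Chi-square per degree of freedom between any pair of libraries was at least 21.3, so none was counted as a repeat. Some genes of the lists are not reported here.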

Additional observations from a re-analysis of the deposited data

Results flagged for a closer look

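Among 78 groups of values (39 named genes, each in both groups of rats), 4 held a rat whose gap to its nearest neighbour passed Dixon's 95% limit; chance flags about 1 in 20 groups. Sik1 was 91.8 CPM in degarelix plus FSH replicate 2, where the other 4 FSH rats had 55.1 to 62.3 CPM. Pde4d was 1.58 CPM in degarelix only replicate 3, where the others of that group had 0.598 to 0.867 CPM. Gng2, a G protein subunit gene, was 37.6 CPM in degarelix plus FSH replicate 3, where the other FSH rats had 5.95 to 10.1 CPM; this is the library with high Schwann cell markers. Nr4a2, an early response transcription factor, was 3.94 CPM in degarelix only replicate 1, where the others of that group had 5.88 to 6.53 CPM.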

How the results depend on the processing

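Other scalings (DESeq2's size factors, upper-quartile factors), a filter of 1 CPM in 5 libraries, limma-voom and edgeR without robust estimation gave the same 5 calls among the 49 genes. Without a low-count filter 1 gene was called lower, Prkar2a, since Pde7b missed (adjusted p = 0.0666). DESeq2 called 1135 genes in all and 6 of the 49 higher, adding Adcy4, Akap8 and Sik1, and called Prkar2a and Prkar2b lower; Pde7b got no adjusted p there. At a threshold of 0.10, 962 genes were called in either direction. Of the 49, 6 were then called higher, and Prkar2a and Pde7b lower. With 1 library left out, 30 to 551 genes were called in all, 0 to 4 of the 49 as higher and 0 to 3 as lower, and the median of the tested genes ran from -0.04 to 0.01. Over those 11 fits the log2 change of Pde3b ran from -0.18 to 0.038, above 0 without degarelix plus FSH replicate 1, and that of Pde4d from -0.17 to 0.16, above 0 without degarelix only replicate 3. Limma-voom put Pde4d at 0.0059. Neither gene was called in any of these. Among the pathway genes DESeq2 also called Adora2a, Crhr2 and Pkig higher. With the replicate number as a block (replicates 1 to 5 of each group) 14 genes were called, 0 of the 49 higher and 0 lower. Same-numbered rats correlated between -0.11 and 0.13 in their deviations from the group means. Each FSH rat correlated best with a degarelix only rat of another number. Whether the numbers pair the rats was not tested. The cause of these shifts was not tested. Depth limits genes under about 1 CPM, such as Pde4d, Adcy2 and Akap6.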
